A study of Mus musculus with 6 samples.

Results

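The pluripotency network that fetal germ cells express was followed through 10 of its genes in the testes of mice at postnatal day 4. The genes were chosen by symbol, as Pou5f1, Sox2, Nanog, Tfap2c, Prdm14, Dppa2, Dppa4, Dppa3, Tcl1 and Zfp42, and all 10 were found among the 54232 genes of the count table. The samples were 3 whole testis libraries labelled Dis3l2 cKO (conditional knockout) and 3 labelled Dis3l2 WT (wild type), all on the strain given as B6D2F1 and with no treatment named. The labels name neither the Cre driver nor the deleted exons, so the cells in which the gene was deleted are not known here. They are also silent on whether libraries of the same group are from different animals, and the p-values below describe only the spread between these libraries, which may in part be technical. Dis3l2 encodes an exoribonuclease that degrades RNAs with an oligouridine tail, and the series asks which genes differ between cKO and control testes.

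Pluripotency factors are best known from embryonic stem cells, where the transcription factors encoded by Pou5f1, Sox2 and Nanog act together on each other's genes and on a shared set of targets. Primordial germ cells express many of the same genes, and in the male the network is turned down as these cells become gonocytes, arrest and then give rise to spermatogonia around birth. A testis at day 4 therefore holds germ cells that have recently left this state, among a large majority of Sertoli, peritubular and interstitial cells. In whole testes, fewer cells of a type and less RNA per cell cannot be told apart.

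The cKO libraries held 26126694, 34708401 and 35390560 counts and the WT libraries 41654998, 43265614 and 35750784. Dis3l2 itself had 31.72 ± 1.65 CPM (counts relative to the library size, which was scaled by the trimmed mean of M values, TMM) in cKO and 31.95 ± 0.93 CPM in WT (SD, n = 3 each). On the log2 scale, cKO over WT, this was a change of -0.0096 (SE 0.07, edgeR quasi-likelihood adjusted p = 0.956), and between 0.0070 and 0.013 when WT replicate 1, cKO replicate 1 or cKO replicate 2 was left out. A count over the whole gene includes exons outside a deleted part and cells without a deletion, so it does not check the labels. The testis markers were present: none of the 24 general germ cell, 14 Sertoli and 8 Leydig cell genes listed was at 0 in all 6 libraries. The Leydig cell gene Hsd3b6 had 5, 6 and 3 counts in cKO and 5, 0 and 2 in WT. It did not pass the filter described below. One library stood apart, cKO replicate 1, which had the lowest total and the highest density of counts over olfactory receptor genes, taken here as a low background. That density was 0.0545, 0.00997 and 0.00896 CPM per kb of gene model in the cKO libraries and 0.0248, 0.0213 and 0.0210 in the WT libraries. Without cKO replicate 1 the test called 1705 genes lower and 1670 higher in cKO, against 996 and 685 with all libraries. For some genes, though not for all, values are given with and without this library.

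Of the 10 genes, 7 were measurable, in the sense that they passed the filter for the test across all genes (a minimum count of 10, which here meant 0.281 CPM in at least 3 libraries, and a minimum total of 15). These were Pou5f1, Tcl1, Dppa4, Zfp42, Tfap2c, Sox2 and Dppa2. Nanog and Dppa3 each reached 0.281 CPM in 1 library, and Prdm14 reached it in 0. A total of 5 genes (Pou5f1, Tcl1, Dppa4, Zfp42 and Tfap2c) had at least 1 CPM in at least 3 libraries. Against a background chosen after the data were seen, the 95th percentile of 1135 olfactory receptor genes (0.0438 CPM per kb), 9 of the 10 lay above, and Prdm14 lay below.

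Per length of gene model the levels fell into a wide order. The mean over all 6 libraries was 3.68 CPM per kb for Tcl1, 3.04 for Dppa4, 2.79 for Pou5f1, 1.15 for Zfp42 and 0.527 for Tfap2c. It was 0.327 CPM per kb for Sox2, 0.200 for Dppa2, 0.163 for Dppa3, 0.0870 for Nanog and 0.0111 for Prdm14. Tcl1, Dppa4 and Pou5f1 thus lay near the middle of the genes that passed the filter, of which 52.4%, 49.1% and 47.7% had lower levels per kb, while 15.3% were lower than Sox2 and 9.31% lower than Dppa2. Of the neighbours in this order, Pou5f1 and Zfp42, and Zfp42 and Tfap2c, were separated in both groups, with every library of the first above every library of the second. Tcl1 lay wholly above Dppa4 in WT only, and Dppa4 wholly above Pou5f1 in cKO only. Tfap2c lay wholly above Sox2 in WT only, and Nanog wholly above Prdm14 in cKO only. Sox2, Dppa2, Dppa3 and Nanog were not separated from their neighbours in this run of the order in either group.

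**Figure D1:**
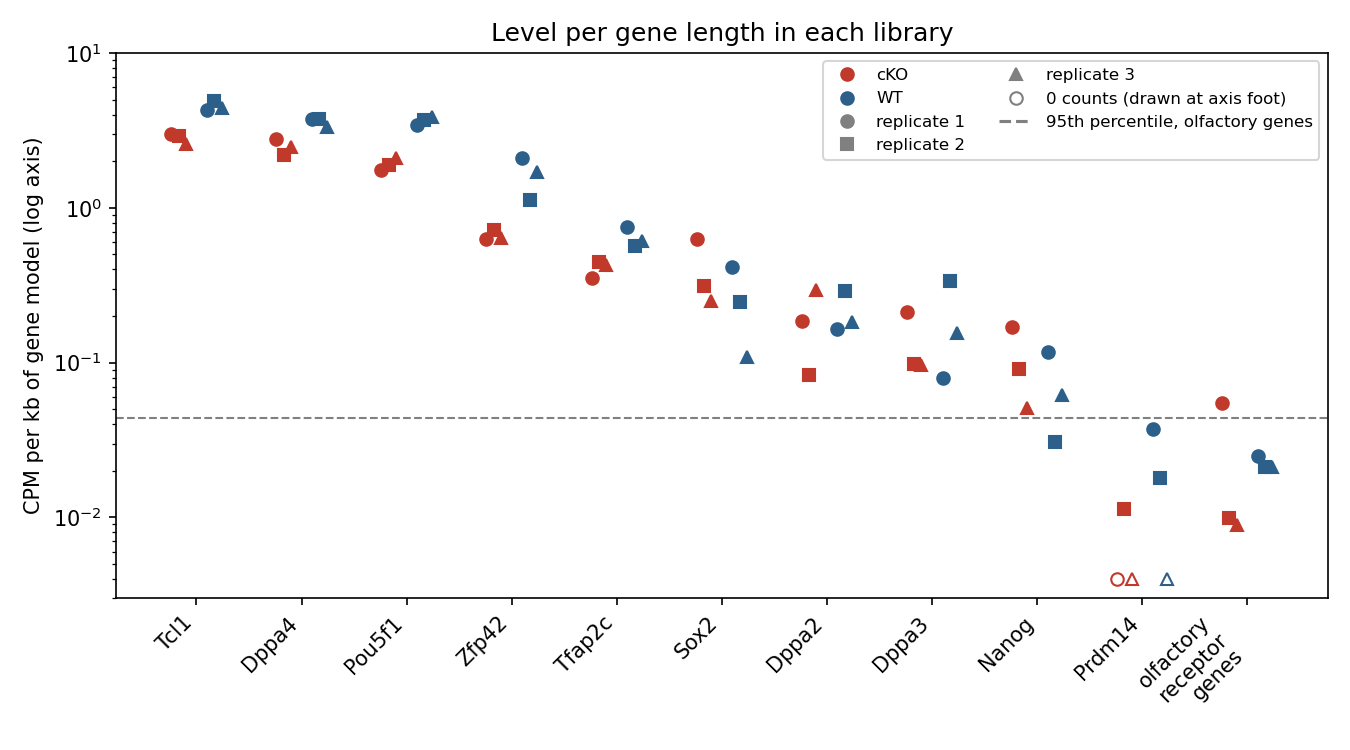
Level of each gene per length of its model (CPM per kb, log axis) in the 3 cKO and 3 WT libraries, in order of the mean, with the mean density over 1135 olfactory receptor genes at the right and their 95th percentile over genes as the dashed line. Open symbols at the foot of the axis are libraries with 0 counts. Tcl1, Dppa4 and Pou5f1 lie near 3 CPM per kb and Prdm14 lies under the dashed line in all 6 libraries.

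In cKO testes 4 of the 7 measurable genes fell and 0 rose, and 3 missed the threshold. Those that fell were Pou5f1, Tcl1, Zfp42 and Dppa4, and those that missed it were Tfap2c, Sox2 and Dppa2. Over all 20153 genes tested, 4.94% were called lower and 3.4% higher at an adjusted p under 0.05. The median log2 fold change of the 7 was -0.65, and that of all genes tested was 0.0096. In 5 of the 7 (the 4 that fell and Tfap2c) all cKO libraries lay below all WT libraries, against 14.6% of all genes tested. The 10 genes together summed to between 17.4 and 18.9 CPM in the cKO libraries and between 28.7 and 30.2 CPM in the WT libraries.

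**Figure D2:**
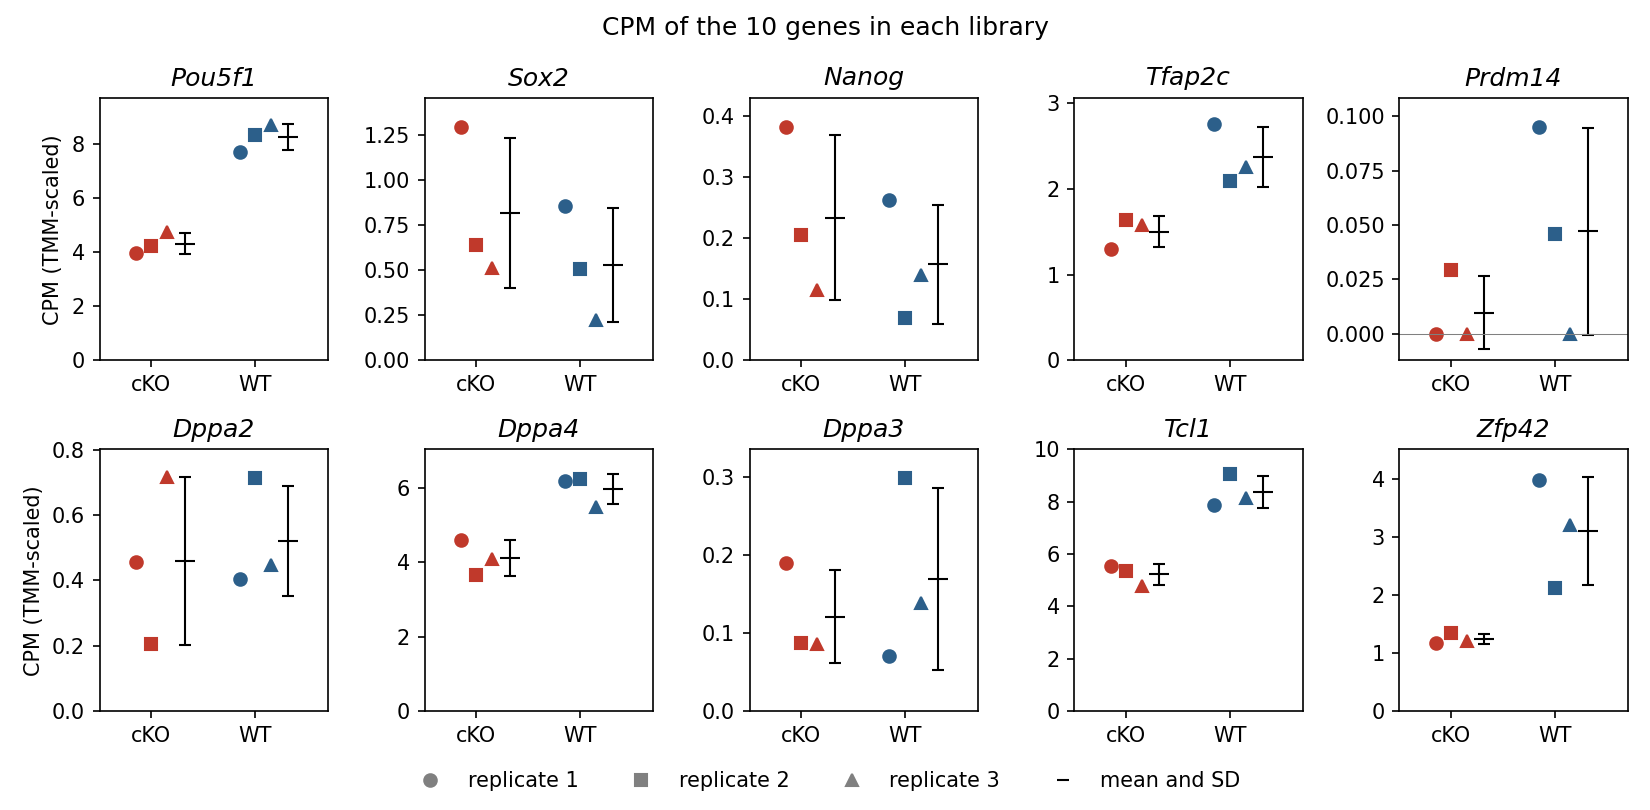
CPM (TMM-scaled) of the 10 genes in each cKO and WT library, with the mean and SD of each group (n = 3) beside the points. Each panel has its own axis, which starts at 0 except for Prdm14, where the SD reaches below 0. The cKO points lie below all WT points for Pou5f1, Tfap2c, Dppa4, Tcl1 and Zfp42, and the groups overlap for the other 5 genes.

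Of the core transcription factors, Pou5f1 was the one at a substantial level. Pou5f1 encodes OCT4, the POU-domain factor required for the pluripotent state and for the survival of primordial germ cells. The gene (ENSMUSG00000024406.16) lies on chromosome 17 from 35506018 to 35510772 on the plus strand (GRCm38). It had 3.96, 4.24 and 4.73 CPM in the cKO libraries and 7.71, 8.33 and 8.68 CPM in the WT libraries, from 104, 145 and 165 counts in cKO and 324, 362 and 311 in WT. The highest cKO library was well below the lowest WT library. Pou5f1 fell by 0.93 on the log2 scale (SE 0.13, 95% interval -1.21 to -0.65, edgeR adjusted p = 0.000988), a level 1.91-fold lower in cKO. It passed the threshold under every alternative and without any single library. A predicted antisense gene, Gm19553, shares 317 bases of its exons with Pou5f1, and had 0, 0 and 2 counts in cKO and 0 in each WT library.

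Sox2, the partner of OCT4 on composite DNA sites, was low and variable. The gene (ENSMUSG00000074637.7) lies on chromosome 3 from 34650405 to 34652461 on the plus strand. It had 1.30, 0.643 and 0.516 CPM in the cKO libraries and 0.857, 0.507 and 0.223 CPM in the WT libraries. The groups overlapped, and cKO replicate 1 was the highest of the 6. The log2 fold change was 0.59 (SE 0.52, 95% interval -0.54 to 1.72, edgeR adjusted p = 0.556), and it depended on single libraries. Leaving out cKO replicate 1 gave 0.11, leaving out WT replicate 3 gave 0.24 and leaving out WT replicate 1 gave 1.12, and it missed the threshold whichever of the 6 was left out. Replicate 1 of cKO also had the highest olfactory receptor density. With the olfactory density of each library subtracted, Sox2 had 0.575, 0.303 and 0.242 CPM per kb in cKO and 0.392, 0.225 and 0.0874 in WT, so the order of the libraries was the same. Another gene on the same strand, Sox2ot, overlaps the span of Sox2 but shares 0 exon bases with it. It had 21, 4 and 6 counts in the cKO libraries and 19, 4 and 12 in the WT libraries. Whether unspliced reads from Sox2ot were counted for Sox2 was not tested. Schwann and neural crest cells also express Sox2. Of 10 genes listed for them, 8 were tested, of which 2 fell (25%, against 4.94% of all genes tested) and 0 rose. The 2 are named after their values were seen, Erbb3 (log2 fold change -0.78, edgeR adjusted p = 0.00281) and Sox10 (-0.95, edgeR adjusted p = 0.0447). Of the 8 tested, 3 had a fitted change below 0 and 5 above, with a median log2 fold change of 0.11. The 10 listed genes summed to 200 to 216 CPM in cKO and 202 to 210 CPM in WT, and none of the 10 was at 0. Their part in the Sox2 level was not tested.

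Nanog, the homeodomain factor of the same core, was near the limit of detection. The gene (ENSMUSG00000012396.12) lies on chromosome 6 from 122707489 to 122714633 on the plus strand. It had 10, 7 and 4 counts in the cKO libraries and 11, 3 and 5 counts in the WT libraries. Summed over a group this was 0.220 CPM in cKO (exact 95% Poisson interval 0.136 to 0.337) and 0.157 CPM in WT (0.0943 to 0.245), intervals that overlap and cover counting error only. A difference in Nanog was not detectable at this depth, and without the filter its fitted log2 fold change was 0.53 (SE 0.92, edgeR adjusted p = 0.871).

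Of the factors that specify germ cells in the embryo, Tfap2c was measured and Prdm14 was almost absent from the counts. Tfap2c encodes the transcription factor AP-2 gamma, required for primordial germ cells. The gene (ENSMUSG00000028640.11) lies on chromosome 2 from 172549593 to 172558622 on the plus strand. It had 1.30, 1.64 and 1.58 CPM in the cKO libraries and 2.76, 2.10 and 2.26 CPM in the WT libraries. The groups did not overlap, and WT replicate 1 was the highest. The log2 fold change was -0.65 (SE 0.22, 95% interval -1.14 to -0.16), with an edgeR adjusted p of 0.0989, and it missed the threshold under every alternative as well.

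Prdm14, which encodes a PR-domain regulator needed for germ cell specification and for the naive pluripotent state, lies on chromosome 1 from 13113457 to 13127163 on the minus strand (ENSMUSG00000042414.7). It had 0, 1 and 0 counts in the cKO libraries and 4, 2 and 0 counts in the WT libraries. A count of 0 allows up to 0.114 CPM in cKO replicate 1, 0.0860 CPM in cKO replicate 3 and 0.0837 CPM in WT replicate 3 (3 counts per library). Over a group, Prdm14 had 0.0105 CPM in cKO (exact 95% Poisson interval 0.000266 to 0.0584) and 0.0495 CPM in WT (0.0182 to 0.108). Its mean of 0.0111 CPM per kb was below the median olfactory receptor gene, at 0.0201 CPM per kb, so these counts cannot be told apart from background.

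The 3 DPPA genes differed widely in level. Dppa2 and Dppa4 encode SAP-domain chromatin proteins that act as a pair in embryonic stem cells, and they are neighbours on chromosome 16. Dppa4 (ENSMUSG00000058550.15, 48283733 to 48294237, plus strand) had 4.61, 3.65 and 4.10 CPM in the cKO libraries and 6.19, 6.24 and 5.50 CPM in the WT libraries. The groups did not overlap. Dppa4 fell by 0.54 on the log2 scale (SE 0.14, 95% interval -0.86 to -0.23, edgeR adjusted p = 0.0385). This call was lost without any one library other than cKO replicate 1, at edgeR adjusted p values of 0.0714 to 0.155, and without cKO replicate 1 the edgeR adjusted p was 0.0091. A pseudogene, Gm14058 on chromosome 2, is 98.9% identical to Dppa4 over 57.8% of the transcript, and reads that map to both were not counted.

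Dppa2 (ENSMUSG00000072419.5, 48303908 to 48319723, plus strand) starts 9671 bases beyond the end of Dppa4. It had 0.457, 0.205 and 0.717 CPM in the cKO libraries and 0.405, 0.714 and 0.446 CPM in the WT libraries. The groups overlapped throughout, and the spread within each was as wide as any gap between them. The log2 fold change was -0.18 (SE 0.51, 95% interval -1.29 to 0.92, edgeR adjusted p = 0.878), and it was above 0 without WT replicate 2 (0.11) or cKO replicate 2 (0.18). The interval is wide enough to hold the change of Dppa4. Dppa2 also has close pseudogene copies (Gm8023, Gm9298 and Gm9788), and reads that map to more than 1 of them were not counted. The next tested gene on that side, Morc1, which silences retrotransposons in male germ cells, fell by 0.51 (SE 0.07, edgeR adjusted p = 0.000633).

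Dppa3, also called Stella, protects the maternal genome of the zygote from demethylation and marks primordial germ cells. The gene (ENSMUSG00000046323.8) lies on chromosome 6 from 122626410 to 122630272, 77217 bases from Nanog. It had 5, 3 and 3 counts in the cKO libraries and 3, 13 and 5 counts in the WT libraries. WT replicate 2 held most of the WT counts. Over a group this was 0.115 CPM in cKO (exact 95% Poisson interval 0.0576 to 0.206) and 0.173 CPM in WT (0.107 to 0.265), and the intervals overlap. A pseudogene on the X chromosome, Dppa3-ps, is 98.2% identical to Dppa3 over 54.1% of the transcript, and reads that map to both were not counted.

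Tcl1 and Zfp42, a pair of further markers of the pluripotent state, both fell. Tcl1 encodes a coactivator of the kinase AKT and is a target of OCT4 in embryonic stem cells. The gene (ENSMUSG00000041359.14) lies on chromosome 12 from 105216750 to 105222793 on the minus strand. It had 5.56, 5.35 and 4.79 CPM in the cKO libraries and 7.88, 9.05 and 8.15 CPM in the WT libraries. The groups were clearly apart. Tcl1 fell by 0.68 on the log2 scale (SE 0.13, 95% interval -0.95 to -0.40, edgeR adjusted p = 0.00617), and it passed the threshold under every alternative and without any single library. The clustered Tcl1b1 to Tcl1b5 genes beside it had at most 5 counts in any library.

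Zfp42 encodes REX1, a zinc finger protein used as a marker of naive embryonic stem cells. The gene (ENSMUSG00000051176.6) lies on chromosome 8 from 43295063 to 43306980 on the minus strand. It had 1.18, 1.34 and 1.20 CPM in the cKO libraries and 3.97, 2.12 and 3.21 CPM in the WT libraries. The cKO libraries were close together, and the WT libraries were spread but all higher. Zfp42 fell by 1.31 on the log2 scale (SE 0.26, 95% interval -1.87 to -0.75, edgeR adjusted p = 0.00878), a level 2.48-fold lower in cKO. Without WT replicate 1, the highest library, it was -1.09 with an edgeR adjusted p of 0.0553. Zfp42 lies in the stretch of chromosome 8 from 30 to 95 Mb, where 14.2% of the 507 genes tested were lower and 6.31% higher. Over all genes tested these shares were 4.94% and 3.4%. The germ cell gene Tex15 (33516738 to 33585582), used for comparison below, lies in the same stretch. The Zfp42 neighbours Triml1 (log2 fold change 0.40, edgeR adjusted p = 0.746) and Triml2 (0.24, edgeR adjusted p = 0.561) did not pass the test.

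**Figure D3:**
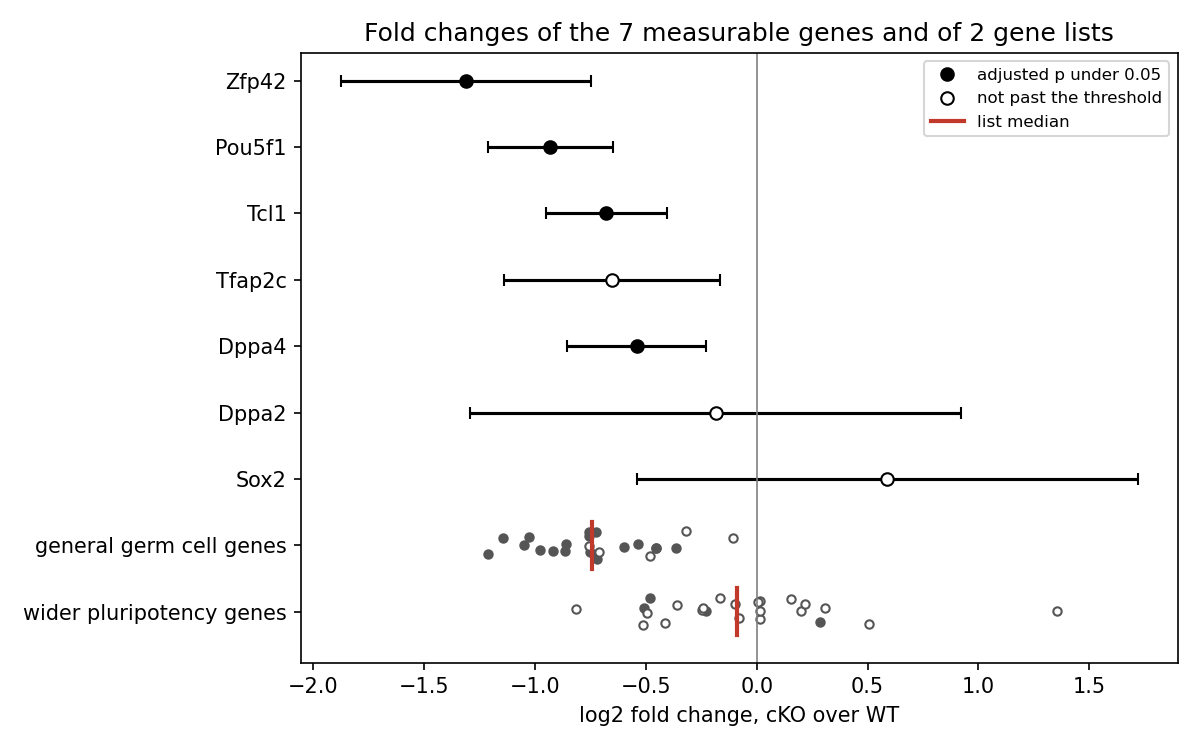
Log2 fold change of cKO over WT for the 7 measurable genes with 95% intervals (n = 3 each), and for the genes of the general germ cell list (24) and of the wider pluripotency list (24 tested) as single points with the list median as a red line. Filled points had an edgeR adjusted p under 0.05. Zfp42, Pou5f1, Tcl1 and Dppa4 are filled and left of 0, and the list medians are -0.74 and -0.09.

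Promoters of 5 of the 10 genes (Pou5f1, Nanog, Sox2, Tcl1 and Zfp42) were matched in RefSeq (GRCm38.p6), but not that of Dppa4. Those of the 3 matched genes that fell are shown. Each is the 250 bases before the annotated start, written 5′ to 3′ on the gene's strand: chr17:35505782-35506031 (plus) for Pou5f1, chr12:105222738-105222987 (minus) for Tcl1 and chr8:43307010-43307259 (minus) for Zfp42. Capitals mark matches, on either strand, to 4 motifs: the octamer ATGCAAAT bound by POU-domain factors, the Sox motif ACAATG, the GC box GGGCGG bound by Sp factors, and the AP-2 motif GCCNNNGGC.
Pou5f1: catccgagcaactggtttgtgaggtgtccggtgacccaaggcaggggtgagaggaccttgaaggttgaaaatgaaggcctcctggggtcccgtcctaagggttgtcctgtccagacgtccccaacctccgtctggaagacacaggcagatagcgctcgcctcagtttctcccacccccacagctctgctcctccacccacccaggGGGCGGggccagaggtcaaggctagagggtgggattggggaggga
Tcl1: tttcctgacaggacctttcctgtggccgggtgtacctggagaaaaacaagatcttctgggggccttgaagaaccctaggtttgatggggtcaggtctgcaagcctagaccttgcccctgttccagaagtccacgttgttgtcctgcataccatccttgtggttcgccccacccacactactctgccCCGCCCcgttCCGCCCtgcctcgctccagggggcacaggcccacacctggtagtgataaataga
Zfp42: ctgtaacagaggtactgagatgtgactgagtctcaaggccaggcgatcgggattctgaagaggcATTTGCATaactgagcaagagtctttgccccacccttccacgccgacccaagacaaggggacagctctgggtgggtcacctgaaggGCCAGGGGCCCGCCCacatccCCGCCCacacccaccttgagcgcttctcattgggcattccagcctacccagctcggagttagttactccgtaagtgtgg
All 3 hold a GC box, as did 32.7% of the 32851 promoter windows of this length and the Sox2 promoter, which has 2 matches. In Pou5f1 it lies 45 to 40 bases before the start, in Tcl1 there are matches at 64 to 59 and 54 to 49 bases, and in Zfp42 at 91 to 86 and 79 to 74 bases. Zfp42 also holds an octamer at 186 to 179 bases, as did 1.6% of windows, and an AP-2 match at 100 to 92 bases that ends where the first GC box begins, as did 13.7%. A Sox motif, held by 10.7% of windows, was in the Nanog promoter and before a second annotated start of Pou5f1, and in none of the 3 windows shown. A match in letters is not a measured binding site, and 250 bases leave out more distant elements.

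The fall of these 4 genes was next set against that of germ cell genes in general, because whole testes were sampled. Among 24 general germ cell genes there were 19 falls and 0 rises, and 5 genes missed the threshold. Their median log2 fold change was -0.74, in a range of -1.21 (Tex15) to -0.11 (Sycp3). Ddx4, the germ cell RNA helicase, fell by 1.05 (edgeR adjusted p = 9.69e-07), Stk31, a Tudor domain protein, by 1.03 (edgeR adjusted p = 2.09e-06), and Usp26, an X-linked ubiquitin protease, by 0.73 (edgeR adjusted p = 5.28e-06). The list summed to 991 to 1057 CPM in cKO and 1736 to 1834 CPM in WT. The fitted change of Zfp42 was below that of all 24 germ cell genes with all libraries, but without WT replicate 1 it was -1.09 and that of Tex15 -1.24. With all libraries, that of Pou5f1 was below all but 5. Tcl1 and Tfap2c were above 16 of the 24, and Dppa4 above 17.

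The log2 CPM of each measurable gene was then expressed relative to germ cell genes, by subtracting library by library the mean over those 24. The differences depend on this list, which was chosen with earlier results of these data known. Its median log2 fold change was -0.74, and that of 18 genes of germ cell specification and gonocytes, described below, was -0.19. Values relative to another list are not given. For Pou5f1 the relative level was -2.44, -2.51 and -2.33 in the cKO libraries and -2.27, -2.24 and -2.15 in the WT libraries, and the groups did not overlap. The mean was lower in cKO, by a cKO minus WT difference of -0.21 (two-sided exact permutation test, p = 0.1, the lowest value that 3 against 3 libraries can give). With the median of the germ cell list in place of its mean, the Pou5f1 difference was -0.09 (exact permutation p = 0.3), so this separation depends on the summary used. For Zfp42 the relative level differed by -0.51 (exact permutation p = 0.3), and WT replicate 2 lay among the cKO libraries. The difference was 0.05 for Tcl1 (exact permutation p = 0.8), 0.09 for Tfap2c (0.6) and 0.19 for Dppa4 (0.4). It was 0.46 for Dppa2 (exact permutation p = 0.5) and 1.36 for Sox2 (0.2), the pair with the lowest counts. Against the median, Sox2 differed by 1.48 (exact permutation p = 0.1). Over these 7 comparisons the Benjamini-Hochberg adjusted values of the exact tests were 0.7 to 0.8. The sign was turned for Tcl1 without cKO replicate 1 (-0.042) and for Tfap2c without WT replicate 2 (-0.016). Without cKO replicate 1 the difference was 0.057 for Dppa4 and 0.95 for Sox2.

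**Figure D4:**
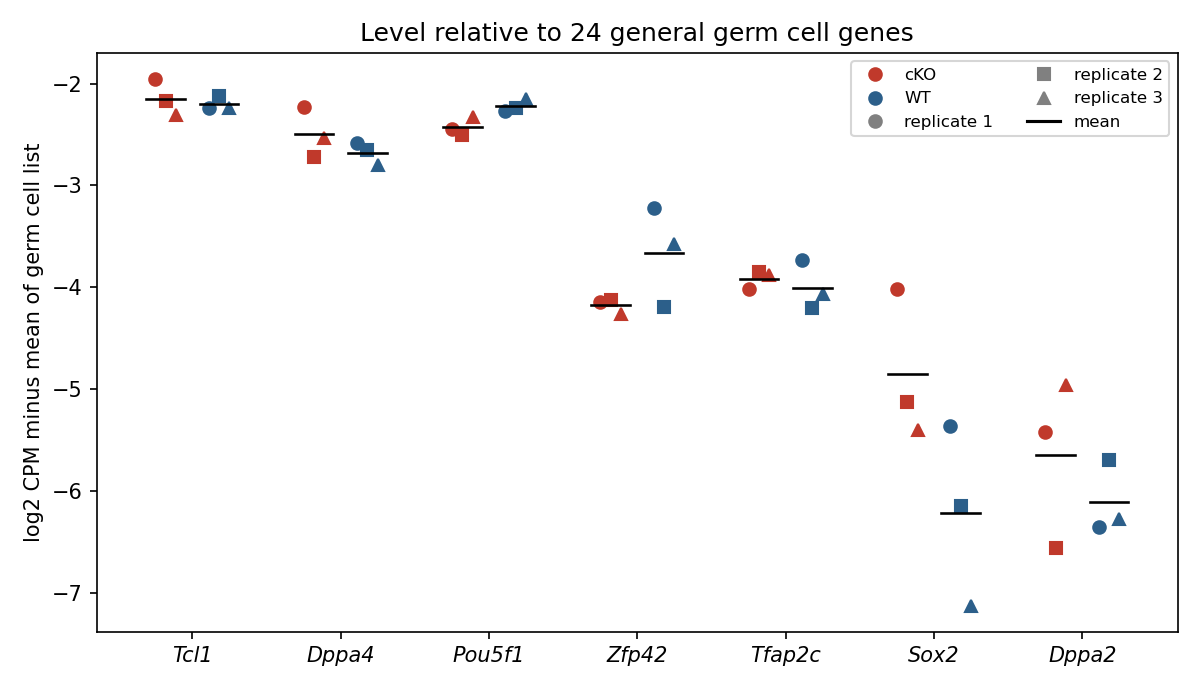
Log2 CPM of each measurable gene minus the mean log2 CPM of 24 general germ cell genes, in the 3 cKO and 3 WT libraries, with the group mean as a line. With this mean the groups are apart for Pou5f1 (difference -0.21) and overlap for the other 6 genes, while with the list median Pou5f1 differs by -0.09 (exact permutation p = 0.3) and Sox2 by 1.48 (exact permutation p = 0.1).

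Markers of other cells moved in both directions beside these genes. Sertoli cell genes summed to 5815 to 6403 CPM in cKO and 5403 to 5454 CPM in WT (14 genes, 1 fell and 4 rose). Leydig cell genes summed to 549 to 625 CPM in cKO and 496 to 513 CPM in WT (7 tested, 0 fell and 3 rose). Macrophage genes summed to 108 to 110 CPM in cKO and 78.6 to 86.8 CPM in WT (8 genes, 0 fell and 4 rose). Genes of duct epithelium, which can be dissected with a testis, summed to 68.4 to 89.0 CPM in cKO and 102 to 111 CPM in WT (10 genes, 3 fell and 0 rose). Epcam and Cdh1, which spermatogonia also express, were 2 of these 3, and the third was Krt7 (log2 fold change -1.47, edgeR adjusted p = 0.0313). All 3 are named after their values were seen. Of the 10 genes, 7 had a fitted change below 0 and 3 above. Without Epcam and Cdh1, taken out after these calls, the sum was 26.6 to 40.2 CPM in cKO and 32.7 to 42.9 CPM in WT, ranges that overlap. The part of these shifts in the levels of Pou5f1, Tcl1, Zfp42 and Dppa4 was not tested.

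The wider pluripotency network was examined through 30 further genes. Of these 24 were tested, of which 3 fell (12.5%, against 4.94% of all genes tested) and 1 rose (4.17%, against 3.4%), and 20 missed the threshold. The median log2 fold change was -0.09. Sall4, a zinc finger factor that works with OCT4 in stem cells and is also active in spermatogonia, had 54.9 ± 5.48 CPM in cKO and 76.6 ± 1.21 CPM in WT (SD, n = 3 each), a log2 fold change of -0.48 (SE 0.07, edgeR adjusted p = 0.00175). Nr5a2, a nuclear receptor that can bind the Pou5f1 gene in stem cells, fell by 0.51 (SE 0.12, edgeR adjusted p = 0.0235), and Zfp281, a zinc finger repressor, by 0.23 (SE 0.06, edgeR adjusted p = 0.0280). Klf4, a Krüppel-like factor that Sertoli cells also express, had 41.5 ± 1.02 CPM in cKO and 34.0 ± 1.45 CPM in WT (SD, n = 3 each), a log2 fold change of 0.29 (SE 0.07, edgeR adjusted p = 0.0204). The calls of Nr5a2, Zfp281 and Klf4 were each lost without at least 3 of the 6 libraries taken singly, at edgeR adjusted p values of up to 0.140. L1td1, an RNA-binding protein of stem cells named here after its values were seen, had 1.65 ± 0.362 CPM in cKO and 0.638 ± 0.403 CPM in WT (SD, n = 3 each). Its log2 fold change was 1.36 (SE 0.41) at an edgeR adjusted p of 0.0621, and it passed the threshold in DESeq2 (adjusted p = 0.0171) and in limma-voom (adjusted p = 0.0376). With the replicate block L1td1 missed the threshold (edgeR adjusted p = 0.0545). It also missed it without replicate 2 or 3 of either group (edgeR adjusted p values of 0.109 to 0.224). Without WT replicate 1 or cKO replicate 1 it passed (edgeR adjusted p values of 0.0206 and 0.0264). Lin28a, whose product binds let-7 precursors, had a log2 fold change of -0.36 (edgeR adjusted p = 0.112). Tdgf1, Gdf3, Fgf4, Eras, Nodal and Otx2 did not pass the filter.

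Of 18 genes of germ cell specification and gonocytes, 5 fell (27.8%, against 4.94% of all genes tested) and 0 rose (against 3.4%). The median log2 fold change was -0.19, with 13 genes fitted below 0 and 5 above. Elavl2, a neuronal-type RNA-binding protein also found in germ cells, fell by 0.54 (edgeR adjusted p = 0.000461), Id4, a marker of spermatogonial stem cells, by 0.59 (edgeR adjusted p = 0.000700), and Etv4, an ETS factor, by 0.40 (edgeR adjusted p = 0.0123). The Etv4 call was lost without WT replicate 2, WT replicate 3 or cKO replicate 2, at edgeR adjusted p values of 0.0612 to 0.0731. Sall4 is in this list as well, and the fifth was Dmrt1 (log2 fold change -0.20, edgeR adjusted p = 0.0393), named after its values were seen. Prdm1, which acts with Prdm14 and Tfap2c in specification, had a log2 fold change of 0.28 (edgeR adjusted p = 0.417), and Nanos2 one of -0.61 (edgeR adjusted p = 0.228).

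Relatives of the 10 genes by protein family were mostly without a call or not measurable. Of 26 listed, 16 were tested, of which 2 fell (12.5%, against 4.94% of all genes tested) and 0 rose (against 3.4%). Their median log2 fold change was -0.17. Prdm4 fell by 0.27 (edgeR adjusted p = 0.0128) and Pou3f1, a POU-domain factor of spermatogonial stem cells, by 0.52 (edgeR adjusted p = 0.0349), and each call was lost without any one of at least 3 libraries. Sox3, an X-linked relative of Sox2 required for spermatogonia, had a log2 fold change of -0.57 (edgeR adjusted p = 0.136). Yy2, a retroposed relative of Zfp42, was at 0 in all 6 libraries.

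Most of the nearest protein-coding neighbours that were tested did not pass the threshold. Those that passed moved in both directions and are all named, here or above. Tcf19, 1962 bases from Pou5f1, had a log2 fold change of 0.11 (edgeR adjusted p = 0.477). Tunar, 111077 bases from Tcl1, had one of -0.40 (edgeR adjusted p = 0.403). D430019H16Rik, 231063 bases away on the same side of Tcl1, rose by 0.24 (edgeR adjusted p = 0.0488). On the far side of Dppa4, Nectin3 fell by 0.24 (edgeR adjusted p = 0.0411) and the predicted gene Gm4737 by 0.61 (edgeR adjusted p = 0.00794). They are distant from Dppa4, at 1785208 and 2128656 bases. Bmp7, a growth factor gene 309390 bases beyond Tfap2c, rose by 0.37 (edgeR adjusted p = 0.0248). Foxj2, 105281 bases beyond Nanog, rose by 0.23 (edgeR adjusted p = 0.0304).

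The genes whose log2 CPM followed Tcl1, the highest of the 10 per kb, most closely over the 6 libraries were Epb41l5, Ddx18, Rspo2, Rps15a and Adad1, with Pearson r of 0.996 to 0.999 among 13600 protein-coding genes searched. The 6 points share the split into 3 cKO and 3 WT libraries. Their own log2 fold changes were -0.20 for Epb41l5, -0.32 for Ddx18, -0.59 for Rspo2, -0.38 for Rps15a and -0.74 for Adad1, a gene specific to germ cells.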

How the data were processed

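RNA was measured in 6 whole testes samples at day 4. Per the labels, libraries were made with a TECAN kit using random and poly(T) priming, strand selection and depletion of abundant transcripts, while the molecule field names polyA RNA. This difference is not settled here. The deposited values are raw counts per gene. Per the file headers they came from featureCounts 1.6.4 on the gene's strand, without reads that map to several places or lie over several genes. The submitters' processing notes name cutadapt, HISAT2, GRCm38.p5 and GENCODE M18. Of 54232 genes, 54165 were named from GENCODE M21.

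The edgeR filter filterByExpr, at a minimum count of 10 and a minimum total of 15, left 20153 genes. Groups were compared with the edgeR 4.0.16 quasi-likelihood test (R 4.3.3, TMM, group as the only term, two-sided), with Benjamini-Hochberg adjustment over these 20153, and called at an adjusted p under 0.05. Log2 CPM used a prior count of 2. Motifs and copies (minimap2 2.31-r1302) were searched in reference sequences, and small groups were compared with exact permutation tests. Poisson intervals and limits for 0 counts cover counting error only. All pairs of replicates differed by more than counting noise (chi-square per degree of freedom 4.20 to 21.9).

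The 10 genes and all lists were chosen with earlier results of these data known, so no list is independent evidence. The genes named are the 10, Dis3l2, up to 4 called genes with the lowest p from each of 4 lists, and the 5 most like Tcl1; others are named as chosen after their values were seen, as neighbours, or with a value that did not pass. On simulated data 200 genes were changed, and 19689 genes passed the filter. Among these, 60% of changes of 0.5 and 74.7% of changes of 1 (log2) were called, and 8.57% of calls were not planted. The data themselves had 996 lower and 685 higher calls, so these rates may not carry over. Alternatives were other scalings, the median of the germ cell list, filters, tools (DESeq2 1.42.0, limma 3.58.1), a replicate block and each library left out. Figures were drawn with matplotlib 3.10.9 (Python 3.11.15, numpy 2.4.6, pandas 2.3.3).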

Additional observations from a re-analysis of the deposited data

How the results depend on the processing

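Over 22 named genes and 326 comparisons with an alternative, 286 kept their direction and their side of the threshold. Of the 194 that left out no library, 189 did, and the other 5 were L1td1, which then passed. The number of measured genes of the 10 called lower was 4 under every alternative with all libraries, and 2 to 4 with 1 library left out, the 2 being without WT replicate 1, when Zfp42 and Dppa4 were lost. The number called higher was 0 throughout. For the wider pluripotency list, the count lower was 5 with no filter on low counts and 1 to 4 with 1 library left out, and the count higher was 2 with no filter, with at least 1 CPM in 3 libraries, in DESeq2, in limma-voom and in the robust fit, and 0 to 2 with 1 library left out. With 1 library left out, the log2 fold change ranged from -0.69 to 0.18 for Dppa2 and from -0.058 to 0.013 for Dis3l2, and the level relative to germ cell genes differed by -0.042 to 0.14 for Tcl1 and by -0.016 to 0.22 for Tfap2c. The cause of these changes was not tested.

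Across all genes, library size alone as the scaling gave 1200 lower and 607 higher calls, against 996 and 685, and without cKO replicate 1 there were 1705 and 1670. The other libraries left out singly gave 387 to 923 lower and 236 to 552 higher. Replicate numbers were checked for pairing: same-numbered libraries of the cKO and WT groups correlated in their deviations from the group means by 0.0292 to 0.111, and since not every pair was over 0.1 they were not treated as pairs. With the replicate block 4 of the 10 genes were lower, and 1058 genes were lower and 740 higher in all. All 6 libraries correlated best with their own number, but this counts each pair from both sides. For WT replicate 2 the margin was small, with 0.029 for cKO replicate 2 and 0.024 for cKO replicate 1. This is at most a hint from the data and not the design. At this depth Nanog, Dppa3 and Prdm14 allowed no test after the filter. DESeq2 gave no adjusted p for Sox2 and Dppa2.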
